A study of Mus musculus and Rattus norvegicus with 24 samples.

Results

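The genes described here are Gadd45a, Gadd45b and Gadd45g, the growth arrest and DNA damage family, and Cdkn1a, which encodes the cyclin-dependent kinase inhibitor p21. They are 4 genes chosen by name, with their response to artery occlusion in these data already known, so their values are given as a description without a test. The arrays measured 22180 mouse and 18166 rat genes that had a transcript cluster (a set of probes for a gene) of their own. All 4 genes had one in rat and 3 had one in mouse. The only mouse cluster carrying Gadd45a is annotated to a second gene as well, so mouse Gadd45a has no level here.

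RNA from the ischaemic penumbra, the threatened tissue around an infarct core, was measured with whole-transcript arrays in adult male C57BL/6 mice aged 8 to 10 weeks and adult male Sprague-Dawley rats aged 8 to 12 weeks. Animals had permanent occlusion of the middle cerebral artery by a filament left in place (pMCAO), on the left in rats and on the right in mice, or sham surgery without occlusion. Tissue of 3 by 3 mm was taken at 2 h or 6 h, and from a similar region on the operated side of sham brains. Each of the 8 groups held 3 animals, with 1 array per animal, and that number limits the precision. All groups had isoflurane anaesthesia and surgery, and no untouched brain was analysed here, so sham values include the response to surgery.

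The Gadd45 proteins are small acidic nuclear proteins without enzyme activity of their own. They bind the kinase MAP3K4, which leads to p38 and JNK signalling, and they bind PCNA, p21 and the CDK1 and cyclin B1 complex, through which they slow cells before mitosis. They also recruit repair enzymes to methylated DNA, and in neurons Gadd45b is induced by activity and is needed for demethylation at Bdnf and Fgf1 regulatory regions. Gadd45a and Cdkn1a are classical targets of the transcription factor p53, whereas Gadd45b was found as a gene induced early by myeloid differentiation signals and by TGF-beta, and Gadd45g as a gene induced by cytokines. The p21 protein binds cyclin-dependent kinases and PCNA, and it can rise without p53.

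The mouse DNA just before the annotated start of each of the 4 genes is shown because the members measured in each species, 4 in rat and 3 in mouse, had higher levels together at 6 h, and the windows differ in their motifs. Rat windows were not used here, so the Gadd45a window is printed without a mouse level beside it. Each window holds the 200 bases before a RefSeq start (mouse build GRCm38.p6), on the gene's strand, and matches to the searched motifs are in capitals. All 4 genes had a window, and Cdkn1a had 2, for its 2 listed starts. The windows lie at chr6:67037408-67037607 (minus strand) for Gadd45a, chr10:80929891-80930090 (plus strand) for Gadd45b, chr13:51846475-51846674 (plus strand) for Gadd45g, and chr17:29090779-29090978 and chr17:29093569-29093768 (plus strand) for Cdkn1a starts 1 and 2.
Gadd45a: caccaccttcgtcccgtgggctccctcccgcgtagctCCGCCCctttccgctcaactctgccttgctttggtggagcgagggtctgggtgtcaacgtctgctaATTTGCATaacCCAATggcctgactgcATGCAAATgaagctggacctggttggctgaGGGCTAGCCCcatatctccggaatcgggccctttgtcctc
Gadd45b: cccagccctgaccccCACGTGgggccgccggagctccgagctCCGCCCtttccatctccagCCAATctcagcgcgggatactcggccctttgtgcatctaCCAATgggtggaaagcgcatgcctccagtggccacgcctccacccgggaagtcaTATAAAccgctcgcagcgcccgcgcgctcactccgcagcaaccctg
Gadd45g: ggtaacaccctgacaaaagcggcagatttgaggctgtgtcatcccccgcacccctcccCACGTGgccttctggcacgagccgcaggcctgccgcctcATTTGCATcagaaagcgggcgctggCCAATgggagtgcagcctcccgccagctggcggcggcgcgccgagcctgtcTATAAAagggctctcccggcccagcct
Cdkn1a start 1: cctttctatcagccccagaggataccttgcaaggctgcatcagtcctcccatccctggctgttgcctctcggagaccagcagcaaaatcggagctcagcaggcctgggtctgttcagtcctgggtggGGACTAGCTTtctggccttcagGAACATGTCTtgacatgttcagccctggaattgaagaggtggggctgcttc
Cdkn1a start 2: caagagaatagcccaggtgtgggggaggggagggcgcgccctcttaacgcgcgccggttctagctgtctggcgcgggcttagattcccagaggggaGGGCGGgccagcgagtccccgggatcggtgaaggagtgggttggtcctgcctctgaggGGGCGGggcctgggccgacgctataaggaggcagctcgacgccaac

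Both strands were searched for 8 motifs, and no matches overlapped in these windows. Their background was 32851 windows of the same length from 27025 genes. The letters TATAAA, the core of one class of promoters, were found in 9.96% of these windows. The CCAAT box was found in 29.3%, the GC box in 31% (searched as GGGCGG) and the E-box in 5.26% (searched as CACGTG). The octamer bound by POU factors, searched as ATTTGCAT, was found in 1.38%. The AP-1 site, searched as TGANTCA, was found in 5.48%, the cyclic AMP response element, searched as TGACGTCA, in 1.47%, and the p53 half-site in 5.59%. The Gadd45b and Gadd45g windows shared TATAAA, an E-box and a CCAAT box, the last of which Gadd45b held at 2 places. The Gadd45a and Gadd45g windows shared the octamer, which Gadd45a held on both strands. A CCAAT box was found in each of the 3 Gadd45 windows and in neither Cdkn1a window. Gadd45a held 1 p53 half-site, and the Cdkn1a start 1 window held 2. The Gadd45a and Gadd45b windows each held 1 GC box, on the opposite strand, and the Cdkn1a start 2 window held 2. No AP-1 or cyclic AMP letters were found in these 5 windows, which says only that those letters are not in this stretch. The windows of Gadd45b and Gadd45g were both 66.5% G or C, with 18 and 15 CpG dinucleotides, against medians of 53% and 5 over all windows. Cdkn1a start 1 had 2 CpG dinucleotides and start 2 had 17, and Gadd45a had 10. These matches are descriptions of letters and not measured binding sites, and the motifs were chosen with the sequences in view.

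The arrays of a group were close to each other over all genes, with 2 rat arrays farthest from their group. The median absolute log2 difference of an array from the mean of the other arrays of its group was 0.08 to 0.115 in mouse and 0.085 to 0.135 in rat. The highest values belonged to rat 6 h pMCAO replicate 3 (0.135) and rat 2 h pMCAO replicate 2 (0.13), and results that turn on them are given without them too. Neuron marker lists averaged 10.18 to 10.59 (log2) over the mouse arrays and 10.84 to 11.57 over the rat arrays, where the array medians were 5.92 to 6.06 and 5.82 to 6.75, so the neuron markers of the labelled tissue were present. Medians differed between 2 h and 6 h arrays, so pMCAO was compared with sham of the same time.

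Gadd45b had higher levels after occlusion in both species, with a larger difference at 6 h than at 2 h. In mouse at 2 h its log2 level was 7.42, 7.50 and 7.68 in sham replicates 1 to 3 and 8.02, 8.51 and 8.26 in pMCAO replicates 1 to 3. At 6 h it was 7.03, 6.74 and 6.68 in sham and 8.86, 9.08 and 9.49 in pMCAO. All pMCAO arrays lay above all sham arrays of their time, by a gap of 0.34 at 2 h and of 1.83 at 6 h. The difference of means was 0.73 ± 0.16 (SE, log2, n = 3 per group; 1.66-fold) at 2 h and 2.33 ± 0.16 (5.02-fold) at 6 h. The 6 h difference was the 6th highest of the 22180 mouse genes. In tissue pieces such as these, more cells of a type and more RNA per cell cannot be told apart, nor can fewer cells and less RNA per cell. This holds for this and every later level.

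In rat at 2 h the Gadd45b level was 7.62, 7.54 and 7.65 in sham and 7.98, 8.17 and 7.77 in pMCAO. At 6 h the level was 6.47, 6.35 and 6.33 in sham and 8.83, 8.40 and 9.30 in pMCAO. The groups did not overlap at either time, though the gap at 2 h was only 0.12 and at 6 h it was 1.93. The difference was 0.37 ± 0.18 (SE, log2, n = 3 per group; 1.29-fold) at 2 h and 2.46 ± 0.18 (5.5-fold) at 6 h. With the 6 arrays of each time fitted alone, the SE was 0.11 at 2 h and 0.2 at 6 h. The 6 h difference exceeded the 2 h difference by 2.09 ± 0.25, the highest such change among the 18166 rat genes. In mouse the same change was 1.60 ± 0.23, the 4th highest of its table. Without 2 h pMCAO replicate 2 the rat 2 h difference was 0.27 ± 0.19. Without 6 h pMCAO replicate 3 the rat 6 h difference was 2.23 ± 0.14 and the rat change 1.86 ± 0.18.

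Gadd45g was the member with a 2 h difference above 1 log2 unit in both species, in rat only with pMCAO replicate 2 (0.86 without it). In mouse at 2 h its level was 7.16, 7.11 and 7.19 in sham and 8.30, 8.17 and 8.70 in pMCAO. At 6 h it was 6.11, 6.33 and 6.36 in sham and 8.21, 8.38 and 8.27 in pMCAO. The lowest pMCAO array stood 0.98 above the highest sham array at 2 h and 1.85 above it at 6 h. The difference was 1.24 ± 0.12 (SE, log2, n = 3 per group; 2.36-fold) at 2 h and 2.02 ± 0.12 (4.06-fold) at 6 h.

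In rat at 2 h Gadd45g was 6.78, 6.45 and 6.68 in sham and 7.26, 9.19 and 7.74 in pMCAO, so replicate 2 was far above the other pMCAO animals. At 6 h Gadd45g was 5.32, 5.71 and 5.47 in sham and 9.08, 8.21 and 9.07 in pMCAO, with a gap of 2.5 between the groups. The difference was 1.43 ± 0.39 (SE, log2, n = 3 per group; 2.69-fold) at 2 h and 3.29 ± 0.39 (9.76-fold) at 6 h, the 4th highest of all rat genes at 6 h. Fitting the 6 arrays of each time alone gave an SE of 0.42 at 2 h and 0.23 at 6 h. Without pMCAO replicate 2 the 2 h difference was 0.86 ± 0.25, and without replicate 1 it was 1.83. The change between times was 1.86 ± 0.55, and 2.42 ± 0.33 without 2 h replicate 2.

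Gadd45a was measured in rat only. At 2 h its level was 8.06, 8.19 and 8.26 in sham and 8.09, 7.95 and 8.09 in pMCAO, and the groups overlapped. In 6 h animals its level was 7.07, 6.87 and 6.99 in sham and 7.71, 7.66 and 8.57 in pMCAO, with replicate 3 high above the other pMCAO animals. The difference was -0.13 ± 0.19 (SE, log2, n = 3 per group; 0.916-fold) at 2 h and 1.00 ± 0.19 (2.00-fold) at 6 h. When the 6 arrays of each time were fitted alone, the SE was 0.08 at 2 h and 0.22 at 6 h. Without 6 h pMCAO replicate 3 the 6 h difference was 0.71 ± 0.09, and both remaining pMCAO arrays were still above every sham array. The change between times was 1.13 ± 0.26, or 0.84 ± 0.12 without that animal.

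Cdkn1a, like rat Gadd45a, showed no separation of the groups at 2 h and did at 6 h. In mouse at 2 h its level was 8.76, 8.83 and 8.96 in sham and 8.39, 8.92 and 8.91 in pMCAO. In the 6 h animals it was 8.28, 8.16 and 7.96 in sham and 9.15, 9.36 and 9.70 in pMCAO, 0.87 apart at the nearest. The difference was -0.11 ± 0.16 (SE, log2, n = 3 per group; 0.927-fold) at 2 h and 1.27 ± 0.16 (2.41-fold) at 6 h. At 2 h the sign rested on pMCAO replicate 1, without which the difference was 0.06.

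In rat at 2 h Cdkn1a was 6.83, 6.69 and 6.85 in sham and 6.93, 7.02 and 6.81 in pMCAO, and the groups overlapped by 0.04. At 6 h it was 6.05, 6.06 and 6.12 in sham and 6.78, 6.80 and 7.51 in pMCAO. Sham animals lay close together while pMCAO replicate 3 stood above the other occluded animals, as it did for Gadd45a and Gadd45b. The difference was 0.13 ± 0.16 (SE, log2, n = 3 per group; 1.09-fold) at 2 h and 0.95 ± 0.16 (1.94-fold) at 6 h, and 0.71 ± 0.08 at 6 h without replicate 3. From the 6 arrays of each time alone, the SE was 0.08 at 2 h and 0.18 at 6 h. The change between times was 1.38 ± 0.23 in mouse and 0.82 ± 0.22 in rat, the latter 0.58 ± 0.11 without replicate 3.

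**Figure D1:**
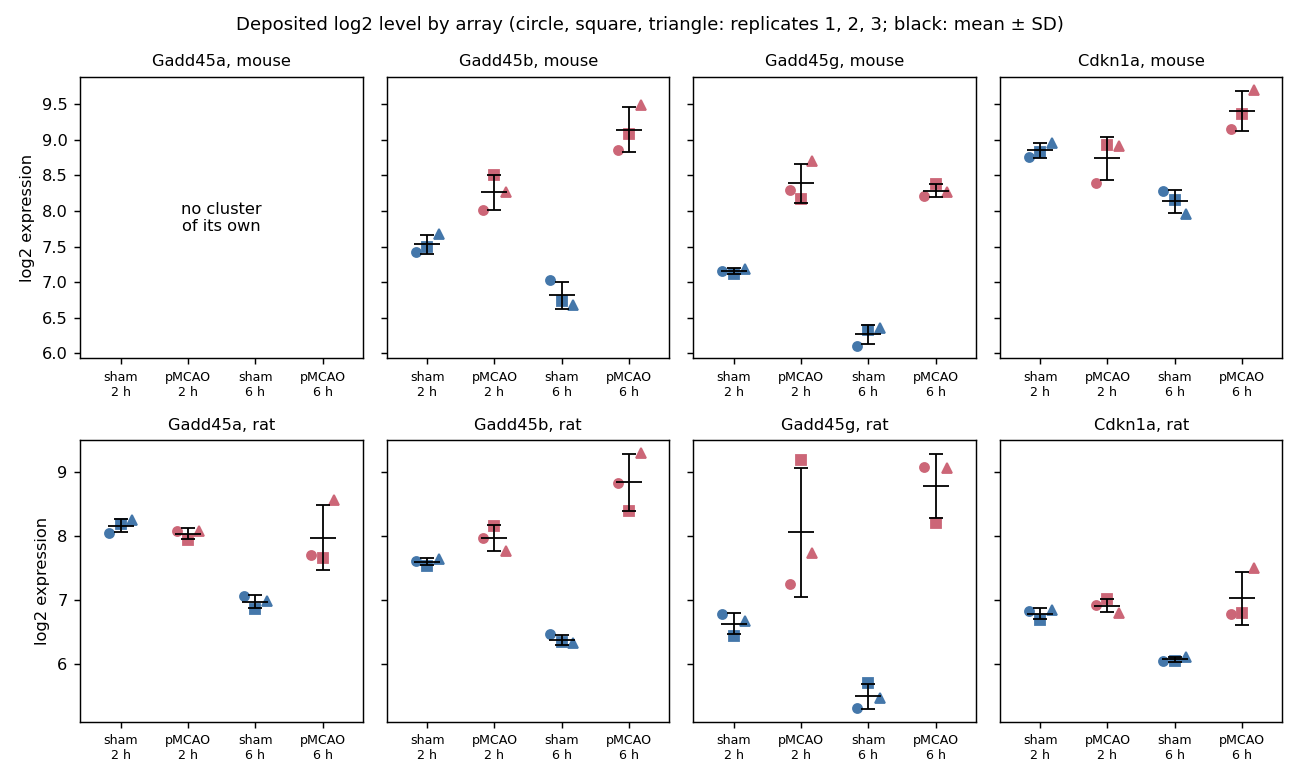
Log2 level (vertical axis) of each gene in every array, by species, surgery and time; circles, squares and triangles are replicates 1, 2 and 3, and black bars give the mean ± SD of 3 animals. At 6 h the pMCAO points lie above the sham points in all 7 panels with data, and at 2 h the groups overlap for rat Gadd45a and for Cdkn1a in both species.

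Set side by side, the surgery groups were apart at 2 h for Gadd45b and Gadd45g and overlapped for Gadd45a and Cdkn1a, while at 6 h no measured member overlapped. Every pMCAO array lay above every sham array for 2 of 3 members in mouse and 2 of 4 in rat at 2 h, where 6.24% and 5.54% of all genes did so. At 6 h this held for 3 of 3 and 4 of 4 members, against 10.7% and 9.73% of all genes. In the limma fit across all genes at an adjusted p under 0.05, 1 of 3 mouse members (Gadd45g) was past the threshold upward at 2 h (0.149% of all genes upward) and all 3 at 6 h (3.21%). In rat the counts were 0 of 4 at 2 h (0.033%) and 4 of 4 at 6 h (2.85%). For the 6 h effect against the 2 h effect they were Gadd45b and Cdkn1a in mouse (0.0857% of all genes upward) and Gadd45b alone in rat (0.165%). Ranked from the highest difference down, the members stood from 12 to 18666 in mouse and from 7 to 15620 in rat at 2 h. At 6 h they stood from 6 to 29 in mouse and from 4 to 120 in rat. For the change between times they stood from 4 to 97 in mouse and from 1 to 137 in rat. These contrasts chose the members, so the counts are printed beside the background and nothing is read from them or from the ranks.

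**Figure D2:**
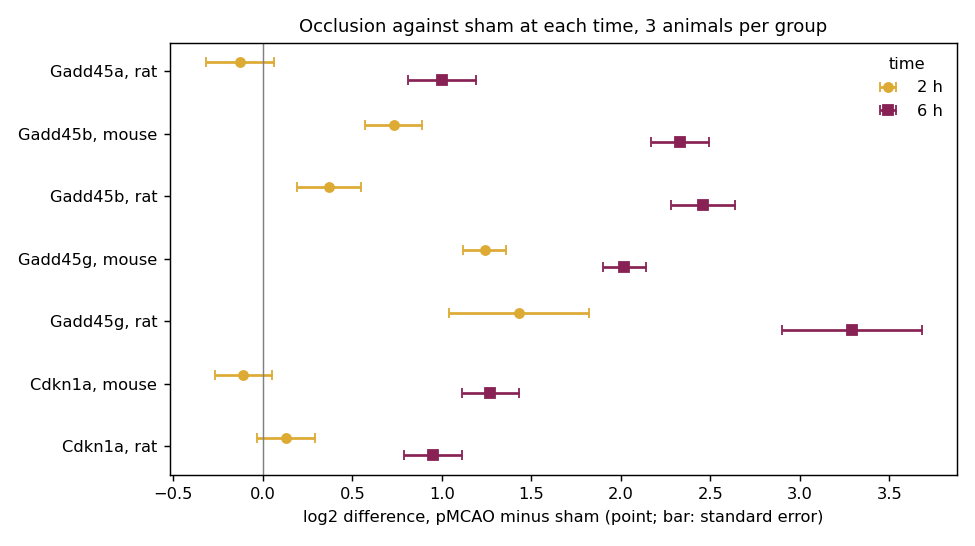
Log2 difference pMCAO minus sham (horizontal axis) for each gene and species at 2 h (circles) and 6 h (squares), with standard errors, 3 animals per group. The 6 h points lie at 0.95 to 3.29 and the 2 h points at -0.13 to 1.43.

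The sham arrays moved too, which matters for reading the change between times. Levels were expressed relative to the median of their own array, since the 2 h and 6 h arrays may have been processed apart, and a gene's sham mean at 6 h was then compared with that at 2 h. Mouse Gadd45g was 0.77 lower in 6 h than in 2 h sham animals, and only 0.266% of mouse genes had a lower sham shift. Over the same interval its pMCAO mean differed by 0.00, with 2.34 above the array median at both times. The larger mouse Gadd45g difference at 6 h therefore came with lower sham values and not with higher pMCAO values on this scale.

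For mouse Gadd45b the sham mean was 0.60 lower and the pMCAO mean 0.99 higher at 6 h than at 2 h, and for mouse Cdkn1a the shifts were -0.60 and 0.77. Between 0.92% and 0.942% of mouse genes had a lower sham shift than these. In rat the sham shifts were -0.33 for Gadd45a, -0.35 for Gadd45b, -0.27 for Gadd45g and 0.15 for Cdkn1a, smaller than the pMCAO shifts of 0.81, 1.74, 1.60 and 0.98. The median sham shift over all genes was -0.05 in mouse and 0.05 in rat. Whether the arrays of the 2 times were processed together is not known, and its part in these shifts was not tested.

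**Figure D3:**
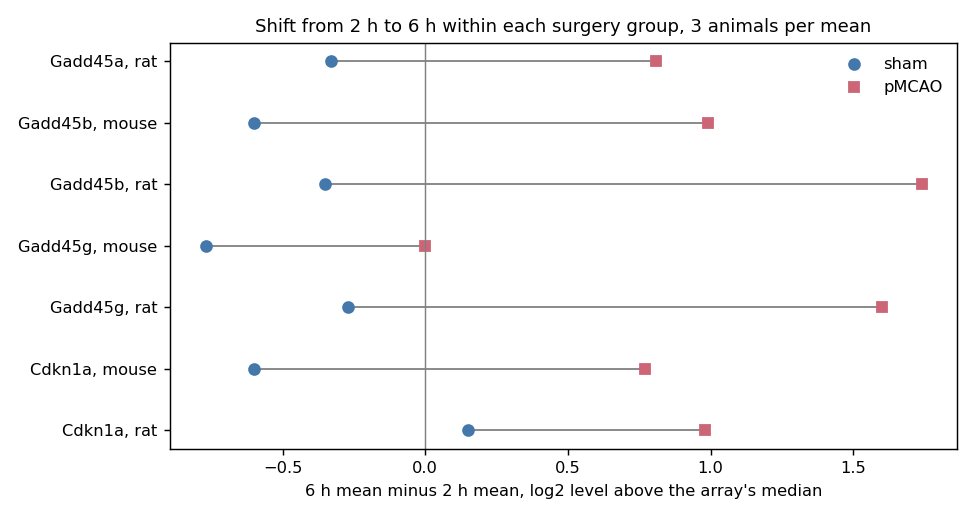
Difference of group means, 6 h minus 2 h (horizontal axis, log2 level above the array's median), for sham (circles) and pMCAO (squares), 3 animals per mean. Mouse Gadd45g has a pMCAO shift of 0.00 and a sham shift of -0.77, while rat Gadd45b moved by 1.74 in pMCAO and -0.35 in sham.

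The members also varied among occluded animals. In rat at 6 h replicate 3 was the highest pMCAO array for Gadd45a, Gadd45b and Cdkn1a, and replicate 2 was the lowest for Gadd45a, Gadd45b and Gadd45g. In mouse at 6 h replicate 3 was the highest and replicate 1 the lowest for both Gadd45b and Cdkn1a, whereas Gadd45g spanned only 8.21 to 8.38. The SD of the 6 h pMCAO levels was 0.09 for mouse Gadd45g and 0.28 to 0.32 for mouse Cdkn1a and Gadd45b, and 0.42 to 0.51 for the rat genes.

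The genes most alike to each member were found by Pearson's r of log2 values centred on the mean of the arrays of the same time, over the 12 arrays of a species. These arrays hold both surgery groups, so r mostly ranks genes by how they separate pMCAO from sham and is given as a measure of likeness only. For mouse Gadd45b they were Jmjd1c (0.985), C3ar1 (0.982) and Thbd (0.972). For mouse Gadd45g they were Ccl3 (0.984), Ptgs2 (0.978) and Zfp36 (0.971), which encode a chemokine, the inducible cyclooxygenase and an mRNA decay factor. Mouse Cdkn1a was most like Rnf4 (0.971), Degs1 (0.968) and Sec61a1 (0.962). Rat Gadd45a was most like Ccdc88c (0.972), Tmem178a (0.963) and Jmjd1c (0.962), the last of which encodes a Jumonji-domain protein and also led the mouse Gadd45b list. Rat Gadd45b was most like Stk10 (0.99), Btaf1 (0.99) and Mvd (0.981). Rat Gadd45g was most like Ccnl1 (0.986), Cited2 (0.983) and the AP-1 gene Fosb (0.983). Rat Cdkn1a was most like Nptx2 (0.983), Pfkfb3 (0.981) and Fhl2 (0.978), which encode a neuronal pentraxin, a glycolytic regulator and a LIM-domain protein. By Spearman's rho instead, Degs1, Btaf1 and Ccnl1 were the genes that stayed among the nearest for their member.

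Around the members, 8 lists of related genes were counted, 118 genes in all, of which 107 were measured in mouse and 106 in rat. The members are in none of the lists. A gene was called at an adjusted p under 0.05 in limma with Benjamini-Hochberg adjustment over all genes of the species. In mouse 5 rose and 1 fell at 2 h, and 21 rose and 6 fell at 6 h, against 0.298% and 7.43% of all genes called in either direction (at 6 h, 3.21% rising and 4.23% falling). In rat 1 rose and 0 fell at 2 h, and 16 rose and 7 fell at 6 h, against 0.0661% and 6.47% (at 6 h, 2.85% rising and 3.62% falling). The median difference of the listed genes at 6 h was 0.033 in mouse and 0.017 in rat, where that of all genes was -0.017 in both. The mouse 6 h count of 27 was 17 without 6 h pMCAO replicate 3 and 17 without 6 h sham replicate 3, and the rat 6 h count of 23 was 15 without 6 h sham replicate 1. The mouse 2 h count of 6 was 3 without 2 h pMCAO replicate 2 or 3, 2 h sham replicate 1 or 3, or 6 h sham replicate 3, and 2 without 2 h sham replicate 2. With the 6 arrays of a time fitted alone the counts were 3 and 9 for the mouse at 2 h and 6 h and 15 for the rat at 6 h. The single rat 2 h call was lost without 2 h sham replicate 2 or 3, and the count was 2 without 6 h pMCAO replicate 1 or 2.

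**Figure D4:**
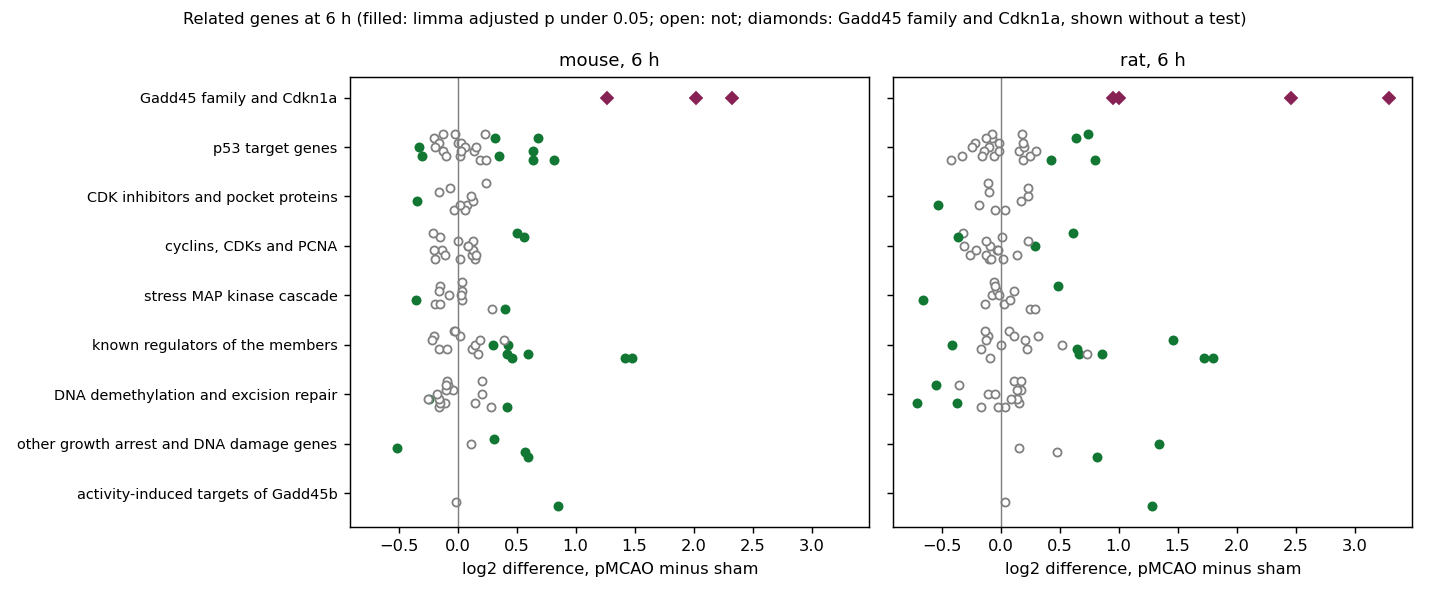
Log2 difference pMCAO minus sham at 6 h (horizontal axis) of every measured gene of the 8 lists, in mouse and rat; filled circles passed limma's adjusted p of 0.05, open circles did not, and diamonds are the Gadd45 genes and Cdkn1a, shown without a test. Most listed genes lie near 0, with 27 of 107 called in mouse and 23 of 106 in rat.

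Most p53 target genes, the group to which Cdkn1a and Gadd45a belong, did not pass the test at 6 h. A larger share rose than of all genes, but the list was made with earlier results of these data known. No enrichment is therefore read from that share. In mouse 6 of 25 measured targets rose and 2 fell, with a list median of 0.03, where 3.21% of all genes rose and 4.23% fell. In rat 4 of 24 rose and 0 fell, with a median of -0.012, where 2.85% of all genes rose and 3.62% fell. The mouse genes named by the rule were the death receptor genes Fas (0.82 ± 0.11 (SE), limma adjusted p = 0.00209) and Tnfrsf10b (0.64 ± 0.11, adjusted p = 0.00877), the stress gene Sesn2 (0.68 ± 0.15, adjusted p = 0.0233) and the antiproliferative gene Btg2 (0.64 ± 0.11, adjusted p = 0.00797). The Sesn2 call was lost without 6 h pMCAO replicate 2 or 3 or 6 h sham replicate 2 or 3 (adjusted p 0.0607 to 0.0766). In rat they were Pmaip1, which encodes the pro-death protein Noxa (0.80 ± 0.15, limma adjusted p = 0.00825), the polo-like kinase genes Plk3 (0.74 ± 0.10, adjusted p = 0.00138) and Plk2 (0.64 ± 0.14, adjusted p = 0.0189), and the cytokine gene Gdf15 (0.43 ± 0.11, adjusted p = 0.0426). The Plk2 call was lost without 6 h pMCAO replicate 1 or 3 or 6 h sham replicate 1 or 2 (adjusted p 0.0592 to 0.0692). The Gdf15 call was lost without any of 9 arrays, namely 2 h pMCAO replicate 1 or 3, 2 h sham replicate 2 or 3, 6 h pMCAO replicate 1 or 2, or any 6 h sham array (adjusted p 0.0547 to 0.151).

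At 2 h the mouse p53 target list had 1 rise, Btg2 (1.07 ± 0.11 (SE), limma adjusted p = 0.00143), and 1 fall, Trp53inp1 (-0.54 ± 0.08, adjusted p = 0.0266), of 25 genes with a median of -0.01. The Trp53inp1 call was lost without any 2 h array or without 6 h sham replicate 3 (adjusted p 0.0529 to 0.127). In rat 0 of 24 passed at 2 h, with Gdf15 the farthest from 0 (0.37 ± 0.11). The p53 gene itself had no level of its own in either species.

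Among the other inhibitors of cyclin-dependent kinases and the pocket proteins of the retinoblastoma family, no measured gene was called higher. In mouse 0 of 10 rose and 1 fell at 6 h, and in rat 0 of 9 rose and 1 fell, with list medians of 0.042 and -0.047. Over all genes 3.21% rose and 4.23% fell in mouse, and 2.85% rose and 3.62% fell in rat. Lists of 10 and 9 genes are too short to set 0 rises apart from those shares. The gene that fell was Rbl2, which encodes the pocket protein p130, in mouse (-0.34 ± 0.06 (SE), limma adjusted p = 0.0126) and in rat (-0.53 ± 0.08, adjusted p = 0.00244). At 2 h 0 of 10 and 0 of 9 passed, with Cdkn2c at -0.15 ± 0.10 in mouse and Cdkn1c at -0.12 ± 0.09 in rat the farthest from 0.

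The partners that p21 and the Gadd45 proteins bind, the cyclins, cyclin-dependent kinases and PCNA with their regulators, mostly did not pass. At 6 h 2 of 17 rose and 0 fell in mouse (median 0.087), and 2 of 18 rose and 1 fell in rat (median -0.083). Of all genes at 6 h, 3.21% rose and 4.23% fell in mouse, and 2.85% rose and 3.62% fell in rat. The G1 kinase gene Cdk6 rose in mouse (0.56 ± 0.11 (SE), limma adjusted p = 0.0119) and in rat (0.61 ± 0.10, adjusted p = 0.00392). The checkpoint kinase gene Chek1 rose in mouse (0.50 ± 0.09, adjusted p = 0.0114). In rat Ccnd1, cyclin D1, rose (0.29 ± 0.08, adjusted p = 0.0499) and Cdk4 fell (-0.36 ± 0.09, adjusted p = 0.0285). The Ccnd1 call was lost without any 1 of the 12 rat arrays (adjusted p 0.0533 to 0.133), and the Cdk4 call without 6 h pMCAO replicate 2 or 3 or 6 h sham replicate 1 or 2 (adjusted p 0.0613 to 0.101). At 2 h 0 of 17 mouse and 0 of 18 rat genes passed, with Cdk1 at 0.36 ± 0.11 in mouse and Ccne2 at -0.28 ± 0.14 in rat the farthest from 0. Dividing-cell markers averaged 5.49 to 5.62 in mouse 6 h pMCAO and 5.35 to 5.54 in sham, and 4.77 to 4.88 against 4.86 to 4.88 in rat, overlapping in both.

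Of the stress MAP kinase cascade that Gadd45 proteins feed through MAP3K4, 1 of 12 rose and 1 fell at 6 h in mouse (median -0.018) and 1 of 13 rose and 1 fell in rat (median -0.01). The shares of all genes were 3.21% rising and 4.23% falling in mouse and 2.85% and 3.62% in rat. Lists of 12 and 13 genes are too short to set 1 call apart from those shares. Map2k6, which encodes a p38 activator, fell in mouse (-0.35 ± 0.09 (SE), limma adjusted p = 0.0431) and in rat (-0.66 ± 0.17, adjusted p = 0.0373). Mapk12, a p38 isoform gene, rose in mouse (0.40 ± 0.09, adjusted p = 0.0214), and Map3k5, the gene of the kinase ASK1, rose in rat (0.49 ± 0.12, adjusted p = 0.0297). All 4 calls depended on single arrays. The mouse Map2k6 call was lost without any array but 6 h sham replicate 1 (adjusted p 0.0522 to 0.133), and the Mapk12 call without replicate 1 or 3 of either 6 h group (adjusted p 0.052 to 0.0762). The rat Map3k5 call was lost without replicate 1 or 3 of either 6 h group (adjusted p 0.0717 to 0.0965). The rat Map2k6 call was lost without 2 h pMCAO replicate 1, 2 h sham replicate 3, 6 h pMCAO replicate 3 or any 6 h sham array (adjusted p 0.0508 to 0.11). At 2 h 0 of 12 and 0 of 13 passed, with Map3k5 at 0.15 ± 0.07 in mouse and Mapk12 at -0.20 ± 0.18 in rat the farthest from 0.

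Of the known regulators of the members, transcription factors and signals reported to act on these promoters, 7 of 19 rose and 0 fell at 6 h in mouse and 6 of 20 rose and 1 fell in rat, with medians of 0.17 and 0.212. Among all genes 3.21% rose and 4.23% fell in mouse, and 2.85% rose and 3.62% fell in rat. The stress factor genes Atf3 and Jun were farthest from 0 in both species. Atf3 was higher by 1.48 ± 0.16 (SE, limma adjusted p = 0.000678) in mouse and by 1.80 ± 0.16 (adjusted p = 0.000153) in rat. Jun was higher by 1.42 ± 0.13 (adjusted p = 0.000254) in mouse and by 1.72 ± 0.10 (adjusted p = 6.82e-06) in rat. Stat3, the factor downstream of interleukin-6 cytokines, rose by 0.46 ± 0.07 (adjusted p = 0.00508) in mouse and 0.86 ± 0.11 (adjusted p = 0.000937) in rat. Myc, whose protein represses Cdkn1a, rose in mouse by 0.60 ± 0.10 (adjusted p = 0.00731), and Egr1, an immediate early gene, rose in rat by 1.46 ± 0.20 (adjusted p = 0.00172). Rat Myc was at 0.73 ± 0.21 (limma adjusted p = 0.0647) and mouse Egr1 at 0.39 ± 0.28 (adjusted p = 0.425). Neither passed, which does not show a difference between the species.

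At 2 h Jun was the listed regulator called in both species. It was higher by 1.35 ± 0.13 (SE, limma adjusted p = 0.000899) in mouse, where 2 of 19 regulators rose, and by 0.79 ± 0.10 (adjusted p = 0.00897) in rat, where 1 of 20 rose. The list medians were 0.023 and 0.123, and 0 fell in either species. Atf3 rose in mouse by 1.23 ± 0.16 (adjusted p = 0.00704), a call lost without 2 h sham replicate 2 (adjusted p 0.0508). The rat Jun call was lost without 2 h sham replicate 2 or 3 (adjusted p 0.0559 to 0.0647). Over all genes at 2 h, 0.149% rose in mouse and 0.033% in rat. The part of these regulators in the levels of the members was not tested.

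Another list held the growth arrest and DNA damage genes outside the family (Ddit3, Ddit4 and Ppp1r15a), with the Ddit4 relative Ddit4l and Gadd45gip1, whose protein binds Gadd45 proteins. In mouse 3 of 5 rose and 1 fell at 6 h (median 0.307), and in rat 2 of 4 rose and 0 fell (median 0.648). For all genes the shares were 3.21% rising and 4.23% falling in mouse and 2.85% and 3.62% in rat. Ppp1r15a, which encodes the phosphatase subunit GADD34, rose in rat by 1.34 ± 0.13 (SE, limma adjusted p = 0.000188) and in mouse by 0.31 ± 0.08 (adjusted p = 0.0482), and Ddit3, the gene of the transcription factor CHOP, rose by 0.82 ± 0.11 (adjusted p = 0.00172) in rat and 0.60 ± 0.09 (adjusted p = 0.00406) in mouse. Ddit4, an inhibitor of mTOR signalling, rose in mouse by 0.57 ± 0.09 (adjusted p = 0.00731). Rat Ddit4 was at 0.48 ± 0.21 and did not pass (limma adjusted p = 0.211). The mouse Ppp1r15a call at 6 h was lost without any array but 6 h pMCAO replicate 1 (adjusted p 0.0578 to 0.134).

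Ddit4l, a relative of Ddit4, moved in opposite directions in mouse. It was higher after occlusion at 2 h by 0.57 ± 0.09 (SE, limma adjusted p = 0.0309) and lower at 6 h by -0.51 ± 0.09 (adjusted p = 0.0106), a change of -1.09 ± 0.13 (adjusted p = 0.0209). The 2 h call was lost without 2 h pMCAO replicate 2 or 3, any 2 h sham array or 6 h sham replicate 3 (adjusted p 0.0568 to 0.143). The call of the change was lost without any 2 h sham array, 6 h pMCAO replicate 3 or 6 h sham replicate 3 (adjusted p 0.0503 to 0.115). Ppp1r15a also rose in mouse at 2 h (0.49 ± 0.08, adjusted p = 0.0404), a call lost without any array but 6 h pMCAO replicate 1 or 3 (adjusted p 0.0561 to 0.191). In rat at 2 h 0 of 4 passed, with Ppp1r15a at 0.72 ± 0.13 the farthest from 0.

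Of the DNA demethylation and excision repair genes with which Gadd45 proteins act, 1 of 17 rose and 1 fell at 6 h in mouse (median -0.097) and 0 of 16 rose and 3 fell in rat (median 0.01). All genes had shares of 3.21% rising and 4.23% falling in mouse and 2.85% and 3.62% in rat. The dioxygenase gene Tet3 rose in mouse (0.42 ± 0.10 (SE), limma adjusted p = 0.0335) and the maintenance methyltransferase gene Dnmt1 fell (-0.24 ± 0.06, adjusted p = 0.0388). In rat the damage recognition gene Xpa (-0.71 ± 0.12, adjusted p = 0.00542), the dioxygenase gene Tet1 (-0.55 ± 0.10, adjusted p = 0.00987) and the endonuclease gene Ercc5 (-0.37 ± 0.07, adjusted p = 0.012) fell. The Tet3 call was lost without any 6 h pMCAO array or 6 h sham replicate 2 or 3 (adjusted p 0.0503 to 0.0993). The Dnmt1 call was lost without any 6 h array, 2 h pMCAO replicate 1 or 2, or 2 h sham replicate 3 (adjusted p 0.0512 to 0.106). At 2 h 0 of 17 and 0 of 16 passed, with Apobec2 at -0.22 ± 0.09 in mouse and Tet1 at -0.32 ± 0.10 in rat the farthest from 0.

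Of the 2 genes whose regulatory DNA Gadd45b is known to act on in neurons, Bdnf, a neurotrophin, rose at 6 h and Fgf1 did not pass the test. Bdnf was higher by 0.85 ± 0.16 (SE, limma adjusted p = 0.0128) in mouse and by 1.28 ± 0.34 (adjusted p = 0.0458) in rat, where its pMCAO levels had an SD of 0.93. The rat call was lost without any array but 2 h pMCAO replicate 3 and 6 h pMCAO replicate 2 (adjusted p 0.0544 to 0.12). Fgf1 differed by -0.01 ± 0.07 in mouse and 0.04 ± 0.10 in rat. At 2 h 0 of 2 passed in either species, with Bdnf at 0.61 ± 0.16 in mouse and 0.35 ± 0.34 in rat.

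For the 6 h effect against the 2 h effect, 0 listed genes rose and 1 fell of 107 in mouse (0.171% of all genes called) and 2 rose and 0 fell of 106 in rat (0.231%). The mouse gene was Ddit4l. The rat genes were Jun, with a change of 0.92 ± 0.14 (SE, limma adjusted p = 0.0203), and Ddit3, with 0.95 ± 0.16 (adjusted p = 0.0347) from -0.13 ± 0.11 at 2 h to 0.82 ± 0.11 at 6 h. The rat Jun call was lost without any 6 h sham array, 6 h pMCAO replicate 1, 2 h pMCAO replicate 3 or 2 h sham replicate 1 or 2 (adjusted p 0.0508 to 0.0679). The rat Ddit3 call was lost without any sham array or 2 h pMCAO replicate 1 or 3 (adjusted p 0.0566 to 0.113). Over single left-out arrays the count of called listed genes ran from 0 to 4 in mouse and from 0 to 7 in rat. The farthest p53 targets, Fas at 0.84 ± 0.15 in mouse and Pmaip1 at 0.75 ± 0.21 in rat, did not pass.

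Markers of cell types moved with surgery in some of these comparisons. In mouse at 6 h the mean of 6 measured striatal neuron markers of 8 listed was 6.97 to 7.16 in pMCAO and 8.13, 7.23 and 8.42 in sham replicates 1 to 3, with 2 called lower. In rat at 6 h the list ran the other way, at 6.53 to 6.56 in pMCAO and 6.40 to 6.48 in sham, with 0 of 7 measured genes called. With the mean added as a covariate, a choice made after seeing the data, the mouse 6 h difference was 2.18 ± 0.24 (SE) for Gadd45b, 1.92 ± 0.18 for Gadd45g and 0.98 ± 0.21 for Cdkn1a. The count of listed genes called in mouse at 6 h went from 27 to 3 with it, while the count over all genes went from 1649 to 63, so the 7.43% background does not apply to that fit. The striatal means of the 2 surgery groups did not overlap there, so that fit cannot fully tell surgery from striatal content. The SEs widened with it, from 0.16 to 0.24 for Gadd45b. Of the mouse genes described at 6 h, Jun, Btg2 and Ddit3 stayed past the threshold. Leaving out sham replicate 2, the sham array nearest the occluded ones, gave 2.29, 2.05 and 1.28 for the same members and 18 listed genes called. That fit keeps the sham arrays with the higher striatal means (8.13 and 8.42), so it cannot tell surgery from striatal content either.

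The microglia list was lower in pMCAO at 6 h in both species, at 7.08 to 7.26 against 7.38 to 7.43 in mouse and 7.09 to 7.34 against 7.51 to 7.61 in rat, with 2 of 5 measured genes called lower in each. In rat it was also lower at 2 h (8.07 to 8.15 against 8.17 to 8.22), with 0 of 5 called. The neutrophil list was higher in rat pMCAO at 2 h (6.12 to 6.45 against 5.74 to 5.92) and at 6 h (5.41 to 5.92 against 4.99 to 5.06), with 2 of 6 genes called higher at 6 h. In mouse it was higher at 2 h (5.42 to 5.66 against 5.28 to 5.38) with 0 of 6 called, and overlapped at 6 h. The oligodendrocyte precursor list was lower in pMCAO at 2 h in mouse (7.71 to 7.75 against 7.88 to 7.90) and in rat (8.23 to 8.29 against 8.31 to 8.43), with 0 of 3 called in each. The mouse oligodendrocyte list was lower in pMCAO at 2 h (9.44 to 9.53 against 9.54 to 9.59) and higher at 6 h (9.44 to 9.48 against 9.15 to 9.40), with 0 of 4 called at either time. The mouse neuron list was lower at 6 h (10.18 to 10.26 against 10.28 to 10.31), with 0 of 6 called. In rat at 6 h the choroid plexus list was 5.26 to 5.62 against 4.94 to 5.25 in sham, with 0 of 4 called. At all other times the listed cell types overlapped between the surgery groups. The part of these cell types in the levels of the Gadd45 genes and Cdkn1a was not tested.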

How the data were processed

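The authors deposited a table per species of log2 expression values to 2 decimals, 12 arrays each (24 in all, 3 animals in each of 8 groups). The submitters' processing notes name oligo and limma without versions; how background was corrected and arrays were normalized is not given in the sources used here. Per the labels RNA integrity numbers were above 7.5 and each array is a separate animal. Groups, times and replicate numbers came from sample titles, because the time characteristic gives 2 h even for samples titled 6 h. No detection calls come with the values, and absence of a gene was not judged; no pair of arrays held equal values at over 2.54% of clusters.

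Clusters were named from the platform annotation (23521 of 41345 mouse and 18511 of 36685 rat clusters had 1 symbol, 1814 and 575 several, 16010 and 17599 none), keeping the cluster with the highest mean per symbol. Group means were fitted with limma 3.58.1 (R 4.3.3) over the 12 arrays of a species (8 residual degrees of freedom), with eBayes and two-sided tests adjusted by Benjamini-Hochberg over all genes. An exact test of 3 against 3 animals cannot go below p = 0.1. On simulated arrays of the mouse 6 h comparison (22180 genes) limma recovered 71.2%, 95.5% and 100% of changes of 0.5, 1 and 2, with 5.76% false calls. For the change between times recovery was lower, 33.9%, 80.6% and 97.3% in mouse (22180 genes, 3.31% false calls) and 24%, 83.3% and 98.6% in rat (18166 genes, 6.99%).

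The members, lists, tests and naming rule were chosen with earlier results of these data known. Named were the members and, per list and comparison, up to 4 called genes with the largest absolute log2 difference, or, where none was called, the gene farthest from 0. Fgf1 at 6 h was added because its list has 2 genes. Myc, Egr1 and Ddit4 at 6 h were added in the species where they did not pass. The 3 most alike genes per member leave out symbols that stand for uncharacterised or large repeat families: those ending in Rik or Ps, and those beginning with Olfr, Olr, Vmn, Mir, Snor, n-R, LOC, RGD, BC0, or with Gm, Or, AA or AI before a digit. Array normalization, the arrays fitted, eBayes settings, array weights, dim genes, the cluster rule, the replicate number as a block and each left-out array were varied.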

Additional observations from a re-analysis of the deposited data

Results flagged for a closer look

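For 3 listed genes the occlusion effect differed between 6 h and 2 h by a test of the difference itself. In mouse Ddit4l had a change of -1.09 (log2, limma adjusted p = 0.0209), from higher in pMCAO at 2 h to lower at 6 h. In rat Jun had a change of 0.92 (adjusted p = 0.0203) and Ddit3 a change of 0.95 (adjusted p = 0.0347). When single arrays were left out, the 3 calls were lost without 5, 7 and 8 arrays in turn. The groups of 3 animals are too small for a check of single outlying samples.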

How the results depend on the processing

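The differences of the Gadd45 genes and Cdkn1a gave 434 values over 33 alternative settings, of which 428 moved by less than 1 SD between replicates, 6 moved by more and 0 called differences reversed. Many of these values could not move. The eBayes setting, the 6 arrays alone, leaving out dim genes and the replicate block leave a difference of group means unchanged. So does leaving out an array of the other time for a 2 h or 6 h difference. The count of 428 is therefore no measure of stability. The 6 were rat Gadd45a and Cdkn1a without 6 h pMCAO replicate 3 and mouse Cdkn1a with the striatal marker covariate, a choice made after seeing the data. Over single left-out arrays the rat 6 h difference ran from 0.71 to 1.16 for Gadd45a and from 0.71 to 1.08 for Cdkn1a, and their change between times from 0.84 to 1.29 and from 0.58 to 0.95. With the covariate mouse Cdkn1a was 0.98 at 6 h and its change 1.15.

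Counts of listed genes called moved more. Over left-out arrays they ran from 2 to 6 and 17 to 25 for the mouse at 2 h and 6 h, 0 to 4 for the mouse change, 0 to 2 in rat at 2 h, 15 to 23 in rat at 6 h and 0 to 7 for the rat change. With the 6 arrays of a time alone (fewer arrays behind the spread) they were 3, 9, 2 and 15 for mouse 2 h, mouse 6 h, rat 2 h and rat 6 h. The covariate gave 3 in mouse at 6 h, 0 for the mouse change, 0 in rat at 2 h and 1 for the rat change. Trend and robust eBayes gave 7 for the mouse change, 3 in rat at 2 h and 5 for the rat change. Array weights gave 2, 3 and 4 for the same comparisons, and leaving out dim genes (fewer genes tested) gave 4 for each change. Quantile normalization within a time gave 1 for the rat change. The causes were not tested. With the 6 arrays alone the calls of Atf3, Ddit4l and Ppp1r15a at 2 h in mouse were lost. At 6 h the mouse calls of Sesn2, Rbl2, Chek1, Map2k6, Mapk12, Myc, Stat3, Tet3, Dnmt1, Ddit4 and Ppp1r15a were lost, and so were the rat calls of Gdf15, Ccnd1, Cdk4, Map3k5, Map2k6, Ercc5 and Bdnf. Mouse Ppp1r15a at 6 h was also lost under quantile normalization, median centring, array weights, all single-symbol clusters and the replicate block. Rat Ccnd1 was also lost under median centring, trend and robust eBayes, array weights, all single-symbol clusters and the block, and rat Bdnf under trend and robust eBayes, array weights and the block. Array weights also ended the 6 h calls of Map2k6 in both species and of mouse Dnmt1. The block also ended the mouse 2 h calls of Trp53inp1, Ddit4l and Ppp1r15a, the 6 h calls of mouse Dnmt1 and of rat Map3k5 and Map2k6, and the rat Ddit3 change, which quantile normalization ended too. The covariate ended all described mouse 6 h calls but those of Jun, Btg2 and Ddit3. It also ended Ddit4l and Ppp1r15a in mouse at 2 h, the mouse Ddit4l change, Jun in rat at 2 h, Gdf15, Ccnd1, Cdk4, Map3k5, Map2k6 and Bdnf in rat at 6 h, and the rat Ddit3 change.

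The arrays gave little sign that the replicate numbers pair the animals, though groups of 3 are too small to exclude it. Deviations from group means of arrays with the same number correlated at -0.12 to 0.06 in mouse and -0.14 to 0.33 in rat, and 3 of 12 arrays in each species correlated best with their own number. With the replicate number as a block the counts were 3 and 24 for the mouse at 2 h and 6 h, 1 for the rat change and 20 in rat at 6 h. Over all genes, counts called also moved, between 616 and 1408 in mouse at 6 h and between 550 and 1268 in rat at 6 h over left-out arrays, around 1649 and 1175. Over the other settings they ran from 63 (the covariate) to 2574 (trend and robust eBayes) in mouse and from 363 (6 arrays alone) to 1698 (trend and robust eBayes) in rat.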
